A study of Mus musculus with 4 samples.

Results

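The stretch of mouse chromosome 19 from 38 to 48 Mb of the mm10 genome held a dense block of variants in all 4 samples of the study. Over the 4 samples it held 1902 variants of the 59141 found in the whole exome, made up of 1685 single-nucleotide variant (SNV) sites of 51985 and 217 insertion or deletion (indel) sites of 7156. The rest of chromosome 19 held 104 SNV sites. A variant was counted when both of the study's variant callers, SpeedSeq and VarScan2, listed the same position and bases. In each caller the site needed 10 or more reads, 3 or more of them with the variant, and a variant share (allele fraction) of 0.10 or more. The call also needed a SpeedSeq quality score of 20 or more. The segment was chosen by these calls and their allele fractions, so its density and its fraction in each sample are given as a description without a test.

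All 4 samples carried the same genotype label, E2-KO, on a C57BL/6 background. By the title of the series this stands for Nras-G12D with a knockout of Ezh2. Genomic DNA came from c-Kit+ leukaemia cells of the bone marrow of moribund mice and was read by exome sequencing, which captures coding exons and some flanking sequence. The labels do not give the animals' ages, how Ezh2 was deleted, or whether each sample came from 1 animal. The samples form 1 group with no control and no matched normal tissue, so no variant is called somatic. They are called replicates 1 to 4, which are only names, and any p-value measures only how these samples vary, which may be technical. The defining markers of the sorted cells could not be checked, since only DNA variants were measured.

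The allele fraction is the share of reads at a site that carry the variant base. As background, a variant on every chromosome copy in every cell reads near the full fraction, a variant on some of the copies or in some of the cells reads lower, and mm10 was built from a C57BL/6 mouse. The segment contains the Cyp2c genes, a tandem family of cytochrome P450 enzymes that oxidise fatty acids, steroids and drugs, mostly in liver. It also contains signalling genes of blood cells such as Blnk, Chuk and Nfkb2, and the desaturases Scd1 to Scd4.

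Promoter windows with variants show what the block looks like at base level. RefSeq (GRCm38.p6) gave 235 windows of 300 bases for 195 genes of the segment, each from 250 bases before to 50 after a gene's start. Of these, 14 windows held an SNV, at 20 sites. The 4 windows below are among the 5 that held the most sites, with ties ordered by the number of calls and then by name, and each has a site counted in every sample. Each is written 5′ to 3′ on the gene's strand, and capitals mark the reference base at each SNV site. The window of Gm34347, a long non-coding RNA, lies at chr19:42298129-42298428 on the plus strand. That of Sfr1, an accessory factor of homologous recombination, lies at chr19:47731506-47731805 on the plus strand. The window of Calhm1, a calcium-regulated ion channel, lies at chr19:47144125-47144424 on the minus strand, and that of Cyp2c67 at chr19:39648993-39649292 on the minus strand.
Gm34347: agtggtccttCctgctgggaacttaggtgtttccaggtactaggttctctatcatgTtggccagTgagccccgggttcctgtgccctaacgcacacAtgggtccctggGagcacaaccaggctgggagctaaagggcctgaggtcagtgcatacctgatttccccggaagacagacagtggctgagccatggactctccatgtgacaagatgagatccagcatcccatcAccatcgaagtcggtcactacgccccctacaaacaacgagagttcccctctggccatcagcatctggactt
Sfr1: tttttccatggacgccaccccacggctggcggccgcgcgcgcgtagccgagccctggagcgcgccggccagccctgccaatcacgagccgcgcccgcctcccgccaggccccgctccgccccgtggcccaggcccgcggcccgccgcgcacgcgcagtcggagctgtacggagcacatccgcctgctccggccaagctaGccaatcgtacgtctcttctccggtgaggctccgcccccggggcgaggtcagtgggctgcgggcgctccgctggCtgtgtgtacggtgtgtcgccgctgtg
Calhm1: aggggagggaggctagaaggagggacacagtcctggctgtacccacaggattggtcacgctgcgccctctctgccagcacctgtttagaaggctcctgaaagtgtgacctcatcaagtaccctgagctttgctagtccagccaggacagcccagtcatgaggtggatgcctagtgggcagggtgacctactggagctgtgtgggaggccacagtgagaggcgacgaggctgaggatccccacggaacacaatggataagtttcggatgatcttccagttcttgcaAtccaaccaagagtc
Cyp2c67: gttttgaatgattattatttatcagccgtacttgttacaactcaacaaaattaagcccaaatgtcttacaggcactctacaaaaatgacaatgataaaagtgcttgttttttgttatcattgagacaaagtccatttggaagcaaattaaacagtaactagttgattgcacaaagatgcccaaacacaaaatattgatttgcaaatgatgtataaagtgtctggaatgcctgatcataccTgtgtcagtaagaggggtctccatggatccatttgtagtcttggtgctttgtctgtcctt

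Base changes in these windows are given as reference base, position counted from 1 at the window's 5′ end, and variant base. The Gm34347 window held 6 SNVs, C11T, T57C, T65C, A97G, G109A and A230G. At A230G the variant was carried by 14 of 52 reads (26.9%), 14 of 49 (28.6%), 35 of 45 (77.8%) and 48 of 48 (100%) in replicates 1 to 4. At G109A it was carried by 14 of 43, 10 of 25, 38 of 50 and 43 of 43 reads, in the order of the replicates. At T65C, which was not counted in replicate 4, it was carried by 12 of 26 reads (46.2%), 5 of 18 (27.8%) and 26 of 32 (81.2%) in replicates 1 to 3, and T57C read 42.1%, 29.4% and 83.3%. Replicate 1 was thus below replicate 2 at some sites of the window and above it at others, and replicates 3 and 4 were higher than both. The deepest of these sites was T241A of Cyp2c67, with the variant in 142 of 378 reads (37.6%), 140 of 310 (45.2%), 82.7% of 365 and 358 of 358 (100%). At A286G of Calhm1 the variant took 35 of 114 reads (30.7%), 38 of 78 (48.7%), 95 of 114 (83.3%) and 107 of 107 (100%). At C274T of Sfr1 it took 7 of 18 reads (38.9%), 15 of 30 (50%), 26 of 34 (76.5%) and 35 of 35 (100%). Replicate 4 had no reference read at any of these 5 sites, while each of the other samples had both bases. The Actr1a window, of a dynactin subunit, held T218C and T225A, neither of them counted in replicate 1. The windows of Morn4 and of the long non-coding RNA Gm30021 also had a site counted in every sample. The Morn4 site, G210A, read 20%, 37.1%, 51.6% and 100%, and the Gm30021 site, C90T, read 30%, 48.5%, 88.3% and 100%. Single sites thus departed from the sample medians, as Morn4 did in replicate 3. None of the 8 microRNA hairpins in the segment, Mir146b among them, was listed with a variant by either caller. Read depth at the hairpins was not looked up, so this does not show that they carry no variant.

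Over the whole segment the samples lay at separate levels. The median SNV allele fraction was 0.345 in replicate 1 (quartiles 0.297 and 0.400, 1234 SNVs), 0.472 in replicate 2 (0.417 and 0.538, 1411 SNVs), 0.791 in replicate 3 (0.732 and 0.837, 1514 SNVs) and 1.0 in replicate 4 (both quartiles 1.0, 1203 SNVs). The range between the quartiles of one sample therefore did not overlap that of another. Over all reads at these sites, the variant took 34.6%, 46.7%, 77.4% and 97.5% in the 4 replicates. Their exact 95% binomial intervals were 34.2 to 34.9, 46.4 to 47.1, 77.1 to 77.6 and 97.4 to 97.6. These intervals cover counting error only, and reads at neighbouring sites are shared. The reference base took 65.3%, 53.0%, 22.2% and 1.89% of the reads in the same order. In replicate 4, 1105 SNVs (91.9%) had no reference read, against 6, 1 and 9 SNVs in replicates 1 to 3.

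SNVs at a fraction of 0.65 or more, here called upper-range, numbered 17 in replicate 1 (1.38%), where 25.5% of the SNVs outside the segment were upper-range. They numbered 82 in replicate 2 (5.81%, against 25.0% outside), 1377 in replicate 3 (91.0%, against 24.1%) and 1175 in replicate 4 (97.7%, against 49.8%). The fractions chose the segment, so nothing is read from these shares. At a depth of at least 30, lower-range SNVs outside the segment had medians of 0.452, 0.457, 0.376 and 0.447 in the 4 replicates, and upper-range SNVs had medians of 1.0, 1.0, 0.804 and 1.0. The segment's median thus lay under the lower-range median in replicate 1, near it in replicate 2, and near the upper-range median in replicates 3 and 4. At this depth the SD over sites was 0.0868, 0.0959, 0.0986 and 0.0903, where a binomial at the median would give 0.0606, 0.0670, 0.0530 and 0.

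**Figure D1:**
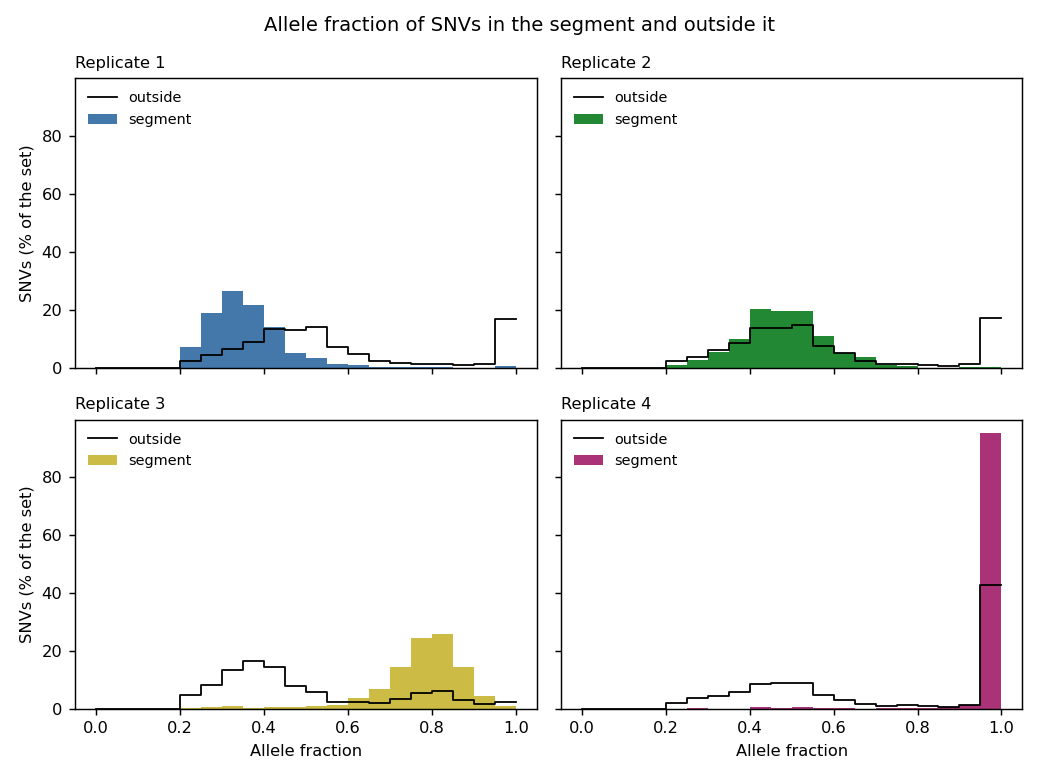
Share of SNVs (vertical axis, percent of the set) by allele fraction in bins of 0.05 (horizontal axis) for each replicate; coloured bars are the segment and the black line is the rest of the exome. The segment forms 1 peak per sample, around 0.345, 0.472, 0.791 and 1.0, where the rest of the exome has both a lower and an upper peak.

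Along the segment the fraction was level in each sample. In bins of 1 Mb the median ran from 0.299 to 0.362 in replicate 1, from 0.455 to 0.500 in replicate 2 and from 0.775 to 0.833 in replicate 3, and it was 1.0 in each of the 10 bins of replicate 4. The lowest bin of replicate 1 and the highest of replicate 3 were both the first bin, which held 12 and 14 SNVs. The SD of the bin medians was 0.0174, 0.0136 and 0.0170 in replicates 1 to 3, smaller than any gap between samples.

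**Figure D2:**
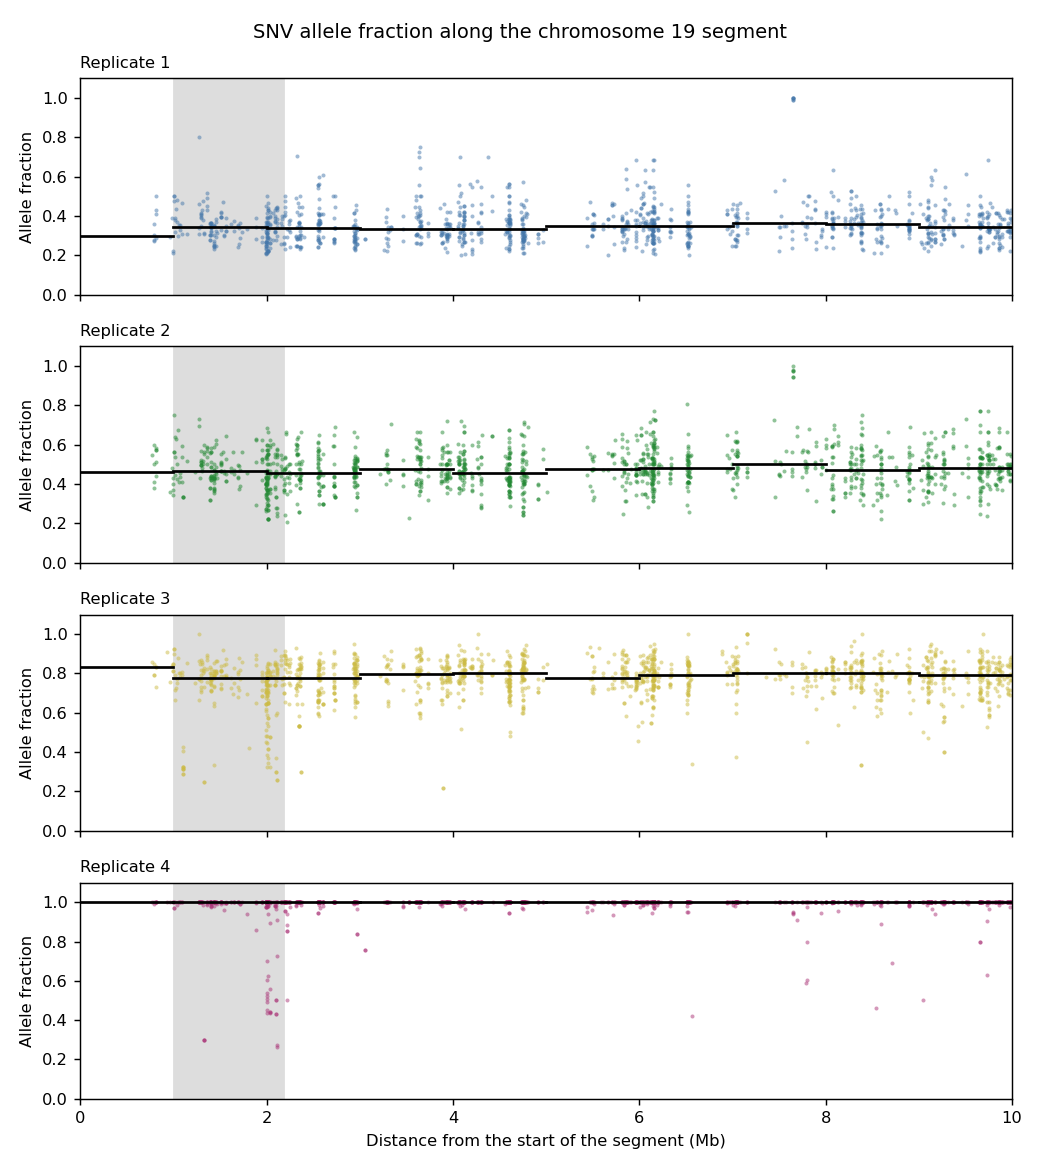
Allele fraction of each SNV (vertical axis) by distance from the start of the segment in Mb (horizontal axis) in replicates 1 to 4; black lines are medians of 1 Mb bins and grey marks the Cyp2c cluster. The bin medians stay between 0.299 and 0.362 in replicate 1 and at 1.0 in replicate 4, and low points in replicates 3 and 4 gather at the end of the grey band.

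The block began at nearly the same place in the 4 samples, while its end was cut by the chosen 48 Mb limit and was not measured. The first SNV lay at position 38765595, in Plce1, a phospholipase C, in replicates 2 to 4, and at 38790266, in Noc3l, in replicate 1. Before it, 9 protein-coding genes of the segment held no SNV, and from 28 to 38 Mb the samples held only 5, 5, 2 and 3 SNVs. The last SNV inside lay at 47988597 or 47988652, both in Cfap58. The fractions did not stop at the 48 Mb limit: the site at 48398641, in the sorting receptor gene Sorcs3, read 30 of 99 (0.303), 59 of 109 (0.541), 63 of 90 (0.700) and 108 of 108 with the variant in replicates 1 to 4. That site keeps the order of the samples seen inside the limit, though replicates 2 and 3 lay just outside their quartiles there. Nearer sites varied in replicate 2, which read 0.286 (4 of 14 reads) at 48185044 and 0.750 (12 of 16) at 48206509. At 48206509 the order of the samples held too. From 48 to 58 Mb the samples held 3, 8, 5 and 7 SNVs in all. The last SNV before the segment, at 37571683 in Exoc6, read 41 of 42 variant reads in replicate 1 (0.976), above the upper quartile of 0.400 inside.

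Many sites were shared. Of the 1685 SNV sites, 917 (54.4%) were counted in all 4 samples, 356 in 3, 214 in 2 and 198 in 1. Outside the segment, 8555 autosomal SNV sites were counted in all 4 samples, and the whole series held 51985 SNV sites. The 51985 include the segment's sites and are not limited to autosomes, so these 2 counts do not form a share to match the 54.4%. Nothing particular to the segment is read from its share, and the look-ups below were not made outside it. Listing by either caller at any quality put 1355 sites (80.4%) in all 4 samples and left 11 that were listed in 1 sample only. Of those 11, replicate 2 held 2, replicate 3 held 4 and replicate 4 held 5, with no more than 44 reads at any of them. At the 917 shared sites, replicate 1 was below replicate 2 at 819 (89.3%), replicate 2 below replicate 3 at 916 (99.9%) and replicate 3 below replicate 4 at 909 (99.1%). Looked at from replicate 4, 859 SNVs of SpeedSeq had a fraction of at least 0.95 with a depth of at least 30 and a mapping quality of at least 50. SpeedSeq found 826 of them in replicate 1 (96.2%, median 0.342, 5th to 95th percentile 0.243 to 0.473) and 853 in replicate 2 (99.3%, median 0.469, 0.346 to 0.616). It found all 859 in replicate 3, with a median of 0.794 (0.686 to 0.889). These SNVs were picked in replicate 4 and looked up in 1 direction only, so they say nothing of sites absent from that sample.

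Depth differed little between the samples. At the 917 shared sites the depth, first divided by each sample's median depth outside the segment, was 1.01, 0.978, 0.988 and 1.01 times the mean of the 4 samples in replicates 1 to 4. By 1 Mb bin it ranged from 0.954 to 1.09, 0.937 to 1.02, 0.963 to 1.06 and 0.941 to 1.03 in the 4 replicates. Over the 10 chromosomes with at least 200 such sites, the same ratio ranged from 0.879 to 1.01, 0.941 to 1.05, 0.977 to 1.04 and 0.992 to 1.08. The segment lay inside the range of those chromosomes in each sample. Depth at the segment's sites relative to the 8555 autosomal sites outside was 0.753, 0.704, 0.687 and 0.730. That ratio depends on which sites are compared: with summed depth in place of medians it was 0.330, 0.344, 0.365 and 0.372, and scaled by the rest of chromosome 19 it was 0.386, 0.581, 0.633 and 0.500.

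**Figure D3:**
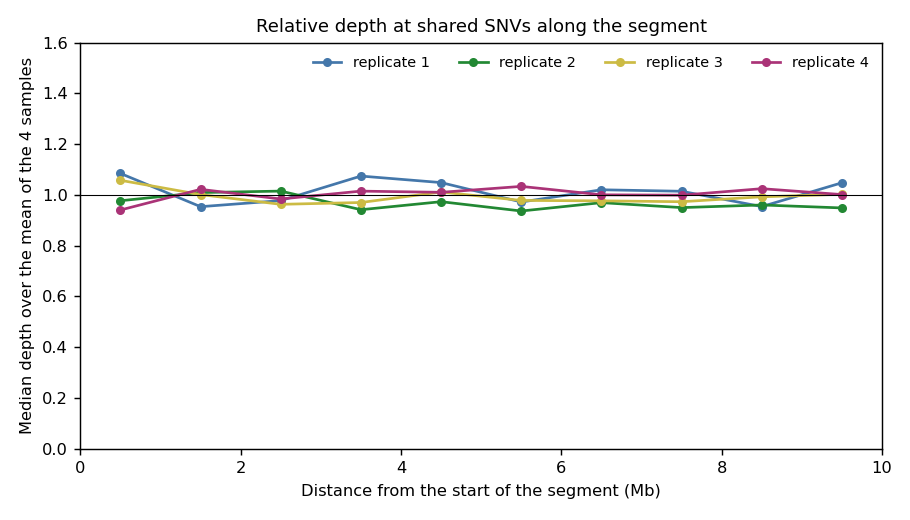
Median depth at shared SNVs over the mean of the 4 samples (vertical axis) by distance from the start of the segment in Mb (horizontal axis), 1 line per replicate. All points lie between 0.937 and 1.09, and no sample is apart from the others along the segment.

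By gene, 1576 of the 1685 SNV sites (93.5%) fell in the body of a protein-coding gene, and 123 of the segment's 154 protein-coding genes held an SNV. Exon and intron boundaries were not used here. In each of the 37 genes with at least 10 SNVs in every sample, the median was lowest in replicate 1, then replicate 2, replicate 3 and replicate 4. Gene medians ran from 0.281 (Bloc1s2, a subunit of a lysosome biogenesis complex) to 0.397 (Cyp2c29) in replicate 1. In replicate 2 they ran from 0.402 (Cyp2c37) to 0.544 (Actr1a), and in replicate 3 from 0.704 (Cyp2c37) to 0.819 (Hps1, mutated in Hermansky-Pudlak syndrome). In replicate 4 the lowest was 0.946 (Cyp2c54). Among these 37 genes, no gene of one sample reached the range of the next, so the order of the samples was the same in each. Some genes with fewer SNVs did not keep it, such as Lcor and Sufu, where replicate 1 lay above replicate 2.

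**Figure D4:**
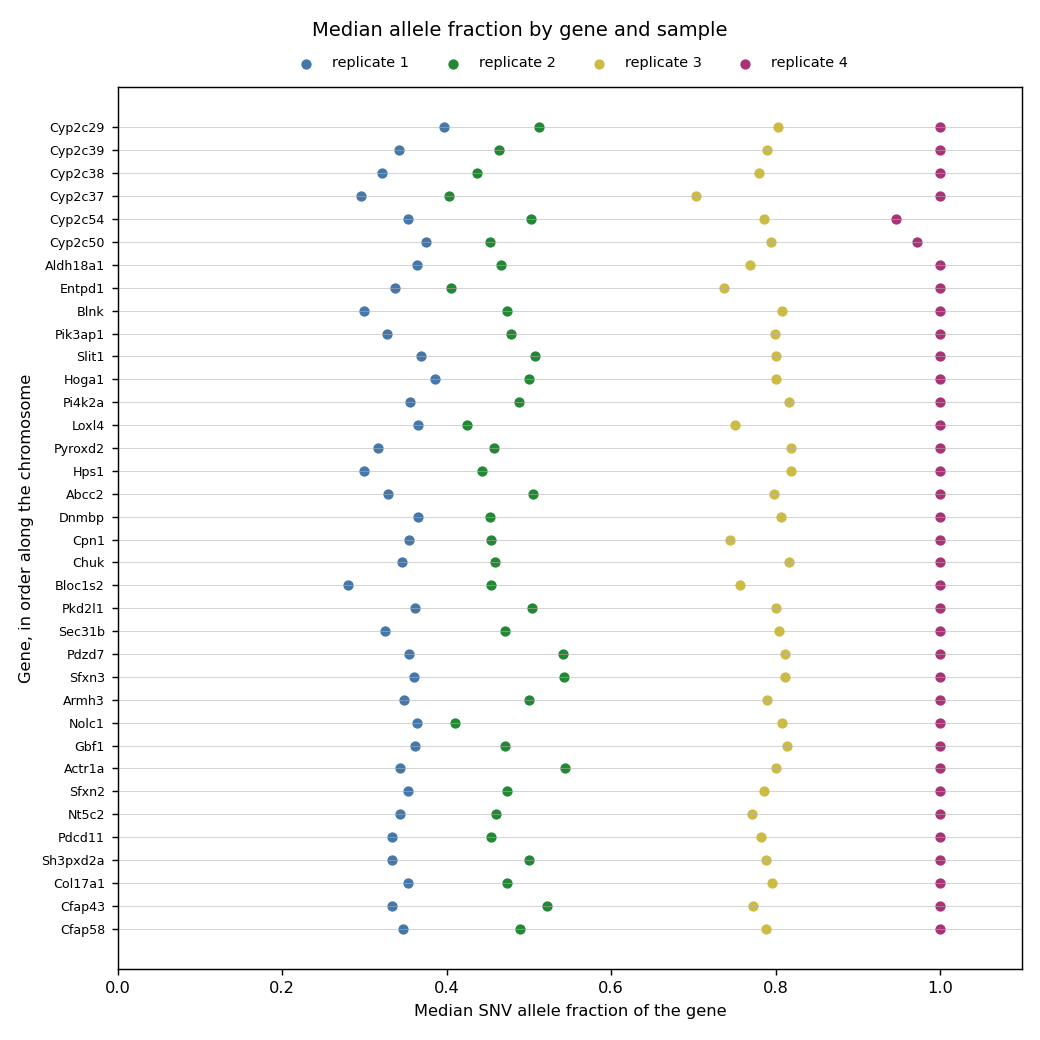
Median SNV allele fraction (horizontal axis) of 36 of the 37 genes with at least 10 SNVs in every sample, in order along the chromosome (vertical axis), 1 point per replicate. The 4 columns of points do not cross in any gene shown; Cyp2c37 is the lowest gene in replicates 2 and 3 and Cyp2c54 in replicate 4.

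Among the 10 genes with the most SNV sites were Cyp2c37 (74), Cyp2c39 (66), Pkd2l1 (56), Loxl4 (55), Blnk (54), Slit1 (53), Col17a1 (51), Cyp2c38 (44) and Aldh18a1 (43). Cyp2c39 and Cyp2c38 overlap in the annotation, so some sites count for both. The deepest site of a gene, taken as the one whose lowest depth over the samples was highest, shows the order of the samples in single counts. In Blnk, the linker that couples the B-cell receptor to its effectors, position 40934600 had the variant in 72 of 173, 91 of 189, 168 of 210 and 224 of 224 reads in replicates 1 to 4. Its gene medians were 0.300, 0.474, 0.807 and 1.0. In Pkd2l1, a cation channel of the polycystin family, position 44191430 had it in 104 of 266, 84 of 151, 173 of 219 and 209 of 212 reads. In both genes replicate 4 was at or near the full fraction and replicate 1 under 0.42.

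In Slit1, a secreted axon guidance ligand, position 41627270 had the variant in 58 of 151, 56 of 131, 114 of 144 and 128 of 128 reads. Aldh18a1, which makes the proline precursor pyrroline carboxylate, read 50 of 120, 45 of 83, 98 of 115 and 113 of 113 at position 40554598. Replicates 1 and 2 were closest at such single sites. In Col17a1, a collagen of hemidesmosomes, position 47673325 read 51 of 138 (37.0%) in replicate 1 and 36 of 93 (38.7%) in replicate 2, against 66 of 99 (66.7%) and 102 of 102 in the others. Loxl4, a lysyl oxidase-like enzyme, had gene medians of 0.365, 0.425, 0.750 and 1.0.

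Of the segment's 154 protein-coding genes, 128 (83.1%) held an SNV or indel, and the counts of the lists below stand against that share; nothing particular to a list is read from them. Of 10 lymphoid and signalling genes, 9 held a variant, with 128 SNV sites: Blnk, Entpd1 (the ectonucleotidase CD39), Pik3ap1 (a PI3-kinase adaptor), Chuk (IKK alpha), Btrc (an F-box protein), Nfkb2, Sufu, Trim8 and Dntt (terminal transferase). The list's medians were 0.327, 0.468, 0.796 and 1.0, next to 0.345, 0.472, 0.791 and 1.0 over the whole segment. Arhgap19 held none. Of the list of 10 transcription factors and developmental ligands, 7 held a variant, with 31 SNV sites: Wnt8b, Lcor, Tlx1, Pcgf6, Nkx2-3, Pitx3 and, with an indel only, Pax2. Lbx1, Fgf8 and Ldb1 held none. The medians of this list were 0.347, 0.471, 0.785 and 1.0.

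All 10 metabolic enzymes held variants, with 116 SNV sites and medians of 0.360, 0.467, 0.769 and 1.0. Aldh18a1 (43 sites), Nt5c2, a nucleotidase (22), Cpn1, a carboxypeptidase subunit (19), and Hoga1, an enzyme of hydroxyproline breakdown (18), had most of them. Got1, As3mt, Pgam1, Cox15, Ndufb8 and Cyp17a1 held the rest. Of 7 lipid enzymes, 6 held variants: Pi4k2a, a phosphatidylinositol kinase (33 sites), Scd4 (10), Scd3 (7), Elovl3 (2), Plce1 (1) and, with an indel only, Scd1. Scd2 held none. Of the DNA replication and repair list, Exosc1 (19 sites), in fact a subunit of the RNA exosome, Mms19 (9), Stn1 (8), Hells (2) and Twnk (2) held variants, with list medians of 0.343, 0.449, 0.784 and 1.0. In replicates 1 to 3 the list medians differed by less than the range between the quartiles of the sample's SNVs, and in replicate 4 each was 1.0.

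The Cyp2c family held variants in all 15 of its genes, where 83.1% of all genes of the segment did, at 248 SNV sites. All but Cyp2c23, which lies apart, stand in a row from Cyp2c55 to Cyp2c70 at chr19:39006940-40187286. In the row the median fraction was 0.342, 0.456, 0.770 and 1.0, against 0.346, 0.476, 0.794 and 1.0 in the rest of the segment. The difference was -0.0119 on average (SD 0.0119, n = 4, negative in 3 samples and 0 in replicate 4, exact two-sided sign-flip permutation p = 0.25). The smallest p of this test with 4 samples is 0.13, but the 0 of replicate 4 raises it to 0.25, the value obtained. Both medians of replicate 4 lay at the ceiling of 1.0, so its 0 does not show that the row and the rest were alike. The test also uses the fractions that chose the segment, so nothing is read from its p. The mean was about the size of the SD, and a design of this size could not pass a threshold of 0.05. Between such close gene copies, reads can be placed on the wrong copy, and mapping quality was lower there. A mean mapping quality under 50 was found at 27.0%, 32.5%, 36.0% and 37.8% of the SNVs in the row, against 1.24%, 1.78%, 1.34% and 3.28% in the rest.

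In replicate 4, SNVs under a fraction of 0.9 gathered in the row: 25 of 196 there (12.8%) and 19 of 1007 elsewhere (1.89%). Cyp2c37 held 9 of these 44 SNVs, Cyp2c50 held 7, Cyp2c54 held 5 and Cyp2c29 held 3. Neighbouring SNVs are not separate observations. The 3 of Cyp2c29 lie from 39324856 to 39324860, each with 14 of 47 reads, and most of those in Cyp2c37 lie from 40001697 to 40001870. Of the 44, 24 (54.5%) had a mapping quality under 50, against 7.16% of the segment's 1159 other SNVs in replicate 4. Within the row, SNVs of low mapping quality had medians of 0.305, 0.423, 0.667 and 1.0 and those of higher mapping quality 0.350, 0.467, 0.786 and 1.0. The part of read placement in these fractions was not tested beyond that split.

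A run of SNVs in Fbxw4, which encodes an F-box protein, did not follow the order of the samples. It was picked out after its values were seen. It held 6 SNVs within 150 bases, from 45650088 to 45650237. They read 99.0% to 100% in replicate 1 at depths of 58 to 127, and 94.6% to 100% in replicate 2 at depths of 33 to 45. SpeedSeq listed 4 of the 6 in replicate 3, all at 100% with 14 to 19 reads, and 4 in replicate 4 at 91.7% to 95.2% with 12 to 21 reads. VarScan2 listed none of them in replicate 3. The other 4 SNVs of Fbxw4 read at medians of 0.303, 0.470, 0.789 and 1.0, so that only the run departed from the sample levels within this gene. Over the sites that SpeedSeq listed, the run's median depth was 102.5, 37.5, 18.5 and 18 reads, whereas at the gene's other SNVs it was 58, 37.5, 47 and 36.5. Mapping quality at the run was 35.2 to 57.9 over the samples, and its part in the fractions was not tested.

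The callers gave the same SNV fractions and differed in which SNVs they listed. The median difference of VarScan2 minus SpeedSeq was 0 in every sample, and the fractions differed by more than 0.1 at 0.243% to 1.33% of the SNVs. Of the SNVs that SpeedSeq passed alone, VarScan2 also passed 98.6%, 97.4% and 96.2% in replicates 1 to 3, and 78.0% in replicate 4. SpeedSeq thus had 17, 38 and 59 SNVs of its own in replicates 1 to 3 and 340 in replicate 4. VarScan2 had 170, 142, 158 and 144 of its own. Of the 340 in replicate 4, 122 had under 20 reads and are left out of the next comparison. Among deeper SNVs, the shortfall in replicate 4 went with the strand of the reads. At a depth of at least 20, VarScan2 listed 84 of 294 SpeedSeq SNVs (28.6%, exact 95% interval 23.5 to 34.1) whose variant reads had under 10% on the lesser strand, and 901 of 909 (99.1%) of the others. In replicates 1 to 3 it listed 99.0%, 100% and 97.8% of such SNVs.

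**Figure D5:**
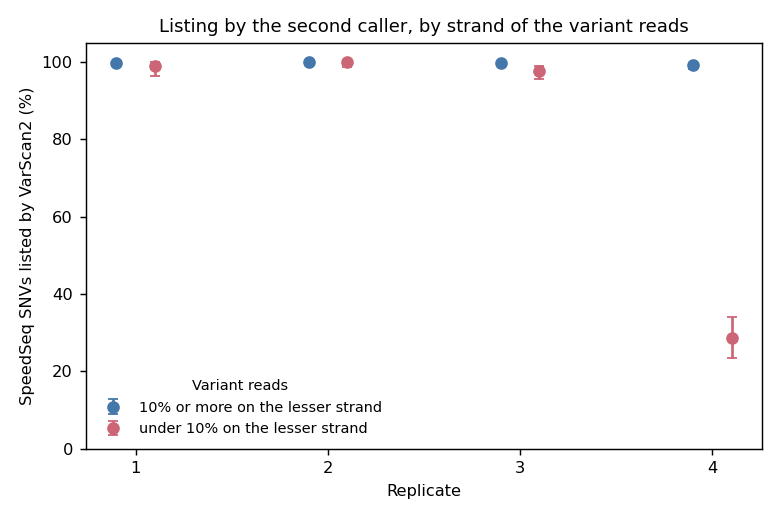
Percent of SpeedSeq SNVs of the segment, at a depth of at least 20, that VarScan2 listed (vertical axis) in each replicate (horizontal axis). SNVs are split by the share of variant reads on the lesser strand, and bars are exact 95% binomial intervals, for counting error only. Listing is between 97.8% and 100% everywhere except for SNVs under 10% on the lesser strand in replicate 4, at 28.6%.

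Sites without a reference read showed this in every sample outside the segment too. Where the variant reads had under 10% on the lesser strand and no reference read was present, VarScan2 listed 25.3% in the segment in replicate 4 (67 of 265), and 20.4%, 23.8%, 17.9% and 26.4% outside it in replicates 1 to 4. All 183309 VarScan2 entries carry the value Pass in the strand filter column. With SpeedSeq alone the sharing changed: sites found in replicates 1, 2 and 3 and missing in replicate 4 were 9, against 187 with both callers. Replicate 4's smaller count of SNVs is thus a count after both callers, and with SpeedSeq alone it had 1543 against 1251, 1449 and 1573.

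Indel medians followed the order of the samples and were lower with VarScan2 than with SpeedSeq. The median fraction of the 101, 136, 176 and 154 indels was 0.351, 0.439, 0.704 and 0.951 in SpeedSeq and 0.333, 0.418, 0.667 and 0.790 in VarScan2. At the same indel, VarScan2 minus SpeedSeq had a median of -0.0139, -0.0154, -0.0396 and -0.0918. The mean of these was -0.0402 (SD 0.0364, n = 4, negative in 4 of 4 samples; exact two-sided sign-flip permutation p = 0.13, the smallest that 4 samples allow), and without replicate 4 it was -0.0230. Against SNVs, indels differed by 0.01, -0.03, -0.09 and -0.05 in SpeedSeq, with a mean of -0.0411 (SD 0.0385, n = 4, exact two-sided sign-flip permutation p = 0.25). This design too could not pass a threshold of 0.05, and it too uses the fractions that chose the segment. The mean was -0.122 with VarScan2 alone and -0.0256 without replicate 3. The longest insertion had 16 bases and the longest deletion 29, and 174 of the 217 indels had a length that is no multiple of 3.

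Deep indels of single bases show how far single sites departed from these medians. A deletion of 1 base in Blnk at 40939339 took 28.8%, 43.7%, 70.6% and 100% of the reads in SpeedSeq and 94.8% in replicate 4 in VarScan2. A deletion of 1 base in Cwf19l1, a splicing-related gene, at 44123289 took 22.3%, 50.4%, 75% and 100%. A deletion of 1 base in the overlap of Cyp2c39 and Cyp2c38 at 39391116 took 34.7%, 52.8%, 81.8% and 98.3%, and in VarScan2 80.0% in replicate 4. In replicate 4 these 3 deletions read at or near the full fraction, as the SNVs did. Insertions of 1 base in Armh3 at 45877599 and in Nolc1, a nucleolar protein gene, at 46083503 stayed lower, at 69.2% and 66.7% in replicate 4 and 63.3% and 53.0% in replicate 3. In replicates 1 and 2 these insertions read 31.6% and 38.7% in Armh3, and 35.6% and 33.6% in Nolc1. VarScan2 read both insertions higher than SpeedSeq in all 4 samples, at 36.1%, 45.4%, 68.4% and 76.6% in Armh3 and 39.2%, 38.2%, 54.8% and 75% in Nolc1.

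Transitions, changes between the purines or between the pyrimidines, made up 72.0%, 70.6%, 70.9% and 72.8% of the segment's SNVs and 68.8%, 69.3%, 70.7% and 68.8% outside it. The difference was 2.19 percentage points on average (SD 1.72, n = 4, positive in 4 of 4 samples; exact two-sided sign-flip permutation p = 0.13, the smallest possible here). The samples share most sites, so they are not independent in this measure. At a mapping quality of at least 50 the mean difference was 0.329 percentage points. Of the segment's 1234, 1411, 1514 and 1203 SNVs, 753, 886, 960 and 712 had another call within 100 bases. No share outside the segment is given for comparison. SNVs with such a close call read at medians of 0.338, 0.464, 0.780 and 1.0, and SNVs further apart at 0.357, 0.484, 0.800 and 1.0. The close SNVs include those split from a single SpeedSeq allele of several bases, which carry the same read counts.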

How the data were processed

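Exons were captured with an Agilent kit and read as pairs of 100 bases, per the labels. The deposited SpeedSeq files were made with freeBayes 0.9.21 against mm10, and their quality score is on the Phred scale, per the file headers. The deposited VarScan2 tables give read counts, and each holds counts of samples called heterozygous or homozygous, per the file headers. No entry has a coverage under 8, under 3 variant reads or a frequency under 20%, so variants that VarScan2 reads under 20% are not counted. SpeedSeq can read a counted site lower, but no counted SNV of the segment read under 0.20. Not given in the sources used here are the aligner, duplicate handling and VarScan2's version.

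Calls were read with Python 3.11.15, pandas 2.3.3, numpy 2.4.6 and scipy 1.17.1. SpeedSeq alleles of equal length were split into single-base changes. The fraction was variant reads over depth (SpeedSeq) or over reference plus variant reads (VarScan2). Median depth at the segment's SNVs was 49, 39, 44 and 45 reads (10 to 419), which limits the precision of single sites. Differences over samples were tested with an exact sign-flip permutation test, checked on fixed inputs with known answers. Gene bodies and promoter windows came from RefSeq, GRCm38.p6. The Cyp2c row was taken without Cyp2c23, which lies apart; the range with it is an alternative chosen after the data were seen.

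Named genes were those of the lists with a variant, the 10 with most SNV sites, 5 with an indel of no multiple of 3, and 5 with promoter SNVs. One gene named by this rule is not reported here. The segment, its members and the lists were chosen with earlier results of these data known. Alternatives were a depth of 30, a quality score of 100, a mapping quality of 50, isolated calls, each caller alone, other summaries and each sample left out.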

Additional observations from a re-analysis of the deposited data

Results flagged for a closer look

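In replicate 4, VarScan2 passed 78.0% of the SNVs that SpeedSeq passed, far below the 96.2% to 98.6% of the other samples. The same sample stood apart at SNVs whose variant reads lay under 10% on the lesser strand, of which VarScan2 listed 28.6% against 97.8% to 100%. These 2 of 13 quantities had a gap from 1 sample to its nearest neighbour that was larger than Dixon's critical share of the range, and chance alone flags about 1 group in 20. The 2 are not independent, because they come from the same SNVs. Allele fractions were not put through this rule, since they chose the segment. The flags are not independent of those fractions. In replicate 4, 265 of the 294 SNVs under 10% on the lesser strand had no reference read. All 199, 306 and 363 SNVs of that strand class in replicates 1 to 3 had reference reads. Without a reference read, VarScan2 listed 25.3% of the class in the segment in replicate 4, and 17.9% to 26.4% outside it over the 4 samples.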

How the results depend on the processing

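Under the alternatives the median SNV fraction stayed within 0.338 to 0.357 in replicate 1, 0.463 to 0.484 in replicate 2, 0.774 to 0.800 in replicate 3 and 0.975 to 1.0 in replicate 4. Depth relative to the genome moved most. At a mapping quality of at least 50 it was 0.838, 0.810, 0.775 and 0.825 in the 4 replicates, and without calls within 100 bases of another it was 0.955, 0.932, 0.887 and 0.909. Scaled by chromosome 19 outside the segment it was 0.386, 0.581, 0.633 and 0.500, and as summed depth 0.330, 0.344, 0.365 and 0.372. The cause was not tested. The difference of indels from SNVs was -0.122 with VarScan2 alone and -0.0566 to -0.0256 with each sample left out. The Cyp2c difference ran from -0.0208 (VarScan2 alone) to -0.00229 (isolated calls), from -0.0159 to -0.00787 with each sample left out, and was -0.0106 with Cyp2c23 in the range. The transition difference ran from 0.329 to 4.08 percentage points, and from 1.58 to 2.83 with each sample left out. The indel caller difference was -0.0230 without replicate 4. None of these changed direction, and the SNV caller difference stayed at 0. No paired analysis was possible because all samples belong to 1 group. Depth limits single sites: at the median depth of 39 to 49 reads neighbouring sample levels can overlap at 1 site.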
